A study of Mus musculus with 6 samples.

Results

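The genes described here were 10 small leucine-rich proteoglycans, picked by gene symbol among the 32286 features of each library: *Dcn* (decorin), *Bgn* (biglycan), *Aspn* (asporin), *Fmod* (fibromodulin), *Lum* (lumican), *Prelp* (prolargin), *Omd* (osteomodulin), *Epyc* (epiphycan), *Ogn* (osteoglycin) and *Chad* (chondroadherin). Each symbol matched 1 feature, and all 10 had UMIs (unique molecular identifiers, 1 per captured transcript) in all 6 libraries. The cells came from Digits in a Dish (DID) cultures, in which mesenchyme of the distal forelimb bud of CD-1 mouse embryos at E11.5 is dissociated and plated at high density, and where cartilage elements, joints and surrounding tissue then form without a scaffold. Cells of pooled embryos were plated together, no genotype or treatment set the libraries apart, and the groups were the days in culture: Day 2, Day 7 and Day 10, each with 2 independent cultures, replicates A and B. Single cells were captured with a 10x Genomics 3′ kit. The labelled tissue was matched by *Prrx1*, a limb mesenchyme gene, at 480.1 and 491 CPM (the UMI counts of a gene scaled to a common library total) in the Day 2 libraries, 215 and 203 in those of Day 7 and 304 and 319 at Day 10, and by the distal limb gene *Hoxa13* at 22.8 and 21.2 at Day 2, 10.5 and 9.38 by Day 7 and 11.4 and 10.8 at Day 10, while the summed level of 5 endothelial markers never passed 1.57 CPM and that of 5 epithelial markers never 19.

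Small leucine-rich proteoglycans are secreted proteins built on a curved scaffold of leucine-rich repeats. They bind collagen fibrils and set how thick and how evenly spaced the fibrils become, and several also bind growth factors of the TGF-β and BMP families. Class I of the family holds decorin and biglycan, which carry chondroitin or dermatan sulphate chains, and asporin, which does not. Fibromodulin, lumican, prolargin and osteomodulin belong to class II, most of which can carry keratan sulphate. Epiphycan and osteoglycin are class III, and chondroadherin is a class IV protein that binds integrins on chondrocytes. In the skeleton, epiphycan and chondroadherin are known from cartilage, osteomodulin from bone, and fibromodulin, lumican and decorin from tendon.

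Most members lie in a few chromosomal clusters (GRCm38, GENCODE M21). *Dcn* (chr10:97479609-97518143), *Lum* (chr10:97565128-97572703) and *Epyc* (chr10:97644068-97682454), all on the plus strand, share a 202.8 kb stretch of chromosome 10 with *Kera* and no other protein-coding gene between them. *Aspn* (chr13:49544443-49567565), *Omd* (chr13:49582462-49592822) and *Ogn* (chr13:49608046-49624501) lie with *Ecm2* within 119.7 kb of chromosome 13, inside the span of *Cenpp* on the opposite strand. *Prelp* (chr1:133910304-133921414, minus strand) and *Fmod* (chr1:134037254-134048277) lie on chromosome 1 with *Optc*, in a stretch of 151.1 kb. *Bgn* (chrX:73483602-73495933) and *Chad* (chr11:94565047-94569127) stand alone. *Aspn* shares exonic bases with *Cenpp*, *Prelp* with the antisense gene *Gm15851* and *Epyc* with the antisense gene *Gm10754*, so the reads of these genes depend on counting by strand.

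The stretches just before the transcription starts of *Epyc*, *Chad*, *Omd* and *Bgn* are shown because these 4 genes moved furthest apart between Day 7 and Day 10, the former pair falling and the latter rising. Sequences are from the RefSeq annotation of GRCm38.p6 on the plus strand, cover 250 bases, and run 5′ to 3′ up to the base before the start. Capitals mark AACAAT, letters contained in many sites bound by SOX proteins, and TATAAA, on either strand. *Epyc* has 2 annotated starts (chr10:97643818-97644067 and chr10:97646853-97647102), and the windows of *Chad*, *Omd* and *Bgn* are chr11:94564797-94565046, chr13:49582212-49582461 and chrX:73483351-73483600.
Epyc, first start: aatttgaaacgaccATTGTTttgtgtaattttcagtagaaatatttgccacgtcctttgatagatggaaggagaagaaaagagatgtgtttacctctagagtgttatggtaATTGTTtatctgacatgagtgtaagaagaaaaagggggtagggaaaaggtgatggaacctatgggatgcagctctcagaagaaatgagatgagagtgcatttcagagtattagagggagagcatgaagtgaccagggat
Epyc, second start: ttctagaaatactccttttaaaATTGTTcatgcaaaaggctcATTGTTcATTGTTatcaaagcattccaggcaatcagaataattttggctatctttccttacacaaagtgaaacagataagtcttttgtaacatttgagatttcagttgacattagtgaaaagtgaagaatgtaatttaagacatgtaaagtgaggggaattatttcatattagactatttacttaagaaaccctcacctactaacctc
Chad: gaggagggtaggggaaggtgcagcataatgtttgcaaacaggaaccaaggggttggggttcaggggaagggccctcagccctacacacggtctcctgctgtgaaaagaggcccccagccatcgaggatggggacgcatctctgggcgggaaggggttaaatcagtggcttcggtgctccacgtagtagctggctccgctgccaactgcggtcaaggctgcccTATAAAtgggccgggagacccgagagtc
Omd: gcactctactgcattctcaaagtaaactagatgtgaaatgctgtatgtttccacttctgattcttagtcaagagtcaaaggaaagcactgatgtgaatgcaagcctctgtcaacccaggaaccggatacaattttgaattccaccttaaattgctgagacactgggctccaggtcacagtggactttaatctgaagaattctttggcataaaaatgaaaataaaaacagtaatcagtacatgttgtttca
Bgn: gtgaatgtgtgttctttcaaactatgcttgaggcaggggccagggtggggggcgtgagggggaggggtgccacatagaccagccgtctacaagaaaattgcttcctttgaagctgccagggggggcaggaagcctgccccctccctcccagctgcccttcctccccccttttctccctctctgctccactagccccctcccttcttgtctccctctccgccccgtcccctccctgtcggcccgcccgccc

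AACAAT occurred 2 times before the first *Epyc* start (236 and 139 bases upstream) and 3 times before the second (228, 208 and 201 bases), while 9.42% of the 32851 promoters of that length in the table held it at least once. *Chad* had TATAAA 28 bases before its start, a motif found in 12.4% of all promoters. Neither motif was found in the windows of *Omd*, *Bgn* and *Fmod*. Among the other members *Aspn* had 1 AACAAT (222 bases) and 2 TATAAA (207 and 178 bases), *Prelp* 1 AACAAT (127 bases) and *Ogn* 2 TATAAA (229 and 227 bases). The E-box letters CANNTG, present in 66.2% of all promoters, were in the windows of *Bgn*, *Aspn*, *Fmod*, *Ogn* and *Chad* and before the second *Epyc* start. *Dcn* and *Lum* were not matched in the table.

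After the limits on cell quality used in the study, 9448 to 16486 cells remained per library, with 178022112 to 260245417 UMIs in all. Day 2 replicate B stood apart, since its cells held a median of 3871 UMIs, while those of Day 2 replicate A held 18587, and since 41.4% of its cells had under 3000 UMIs. Members were therefore also tested without it. Any 2 libraries shared 24 to 67 cell barcodes, at most 0.543% of the smaller library. No doublets were removed. Levels are CPM after scaling of the library totals (TMM), and because 3′ UMIs were not set against transcript length, levels are compared between samples and classes of cells, never between genes. In sums over a whole culture, fewer cells of a type and less RNA per cell cannot be told apart. With 2 cultures a day, a p-value measures only the spread between cultures of the same day. In whole cultures this spread was estimated over all 6 libraries together, so Day 2 also enters the test of Day 10 versus Day 7.

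All 10 members were low at Day 2 and rose by Day 7, and from Day 7 to Day 10 they parted: *Bgn*, *Omd*, *Aspn* and *Fmod* went on rising, while *Dcn*, *Chad* and *Epyc* fell, and *Lum*, *Prelp* and *Ogn* did not pass the test. Among the class I genes, *Dcn* had 4.3 and 4.5 CPM at Day 2, then 132 and 141 at Day 7 and lastly 72 and 75.3 at Day 10, the culture of replicate A first. The 2 cultures of a day were close to each other, and Day 7 was the highest of the 3 days. *Bgn* had 109.9 and 99.2 CPM at Day 2, then 715 and 698 at Day 7 and lastly 1532 and 1385 at Day 10, so that each later day stood above the one before. *Aspn*, whose product binds collagen and TGF-β, gave 28.7 and 33.9 CPM at Day 2, then 181 and 176 at Day 7 and lastly 317 and 289 at Day 10, with the same order of days.

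Among the class II genes, *Fmod* had 5.65 and 5.86 CPM at Day 2, then 51.9 and 53.6 at Day 7 and lastly 86.5 and 76.8 at Day 10. *Omd* stood at 5.78 and 6.52 CPM at Day 2, then 71.9 and 66.1 at Day 7 and lastly 122 and 126 at Day 10, and both genes rose at each step with no overlap between days. *Lum* had 25.2 and 26 CPM at Day 2, then 198 and 203 at Day 7 and lastly 181 and 189 at Day 10 and *Prelp* 5.77 and 5.97 CPM at Day 2, then 38.7 and 37.2 at Day 7 and lastly 37.2 and 37.3 at Day 10. For these 2 genes the later days lay side by side, far above Day 2.

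Of the class III and IV genes, *Ogn* was at 91.3 and 105 CPM at Day 2, then 484 and 491 at Day 7 and lastly 472 and 488 at Day 10, again with a plateau after Day 7. *Epyc* was nearly silent at Day 2 and had a peak at Day 7: 0.532 and 0.959 CPM at Day 2, then 153 and 148 at Day 7 and lastly 35.6 and 41.1 at Day 10. *Chad* followed the same course with 4.99 and 5.18 CPM at Day 2, then 46.3 and 40.8 at Day 7 and lastly 16.9 and 15.5 at Day 10. Both genes stood at Day 10 between the values of the other days.

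**Figure D1:**
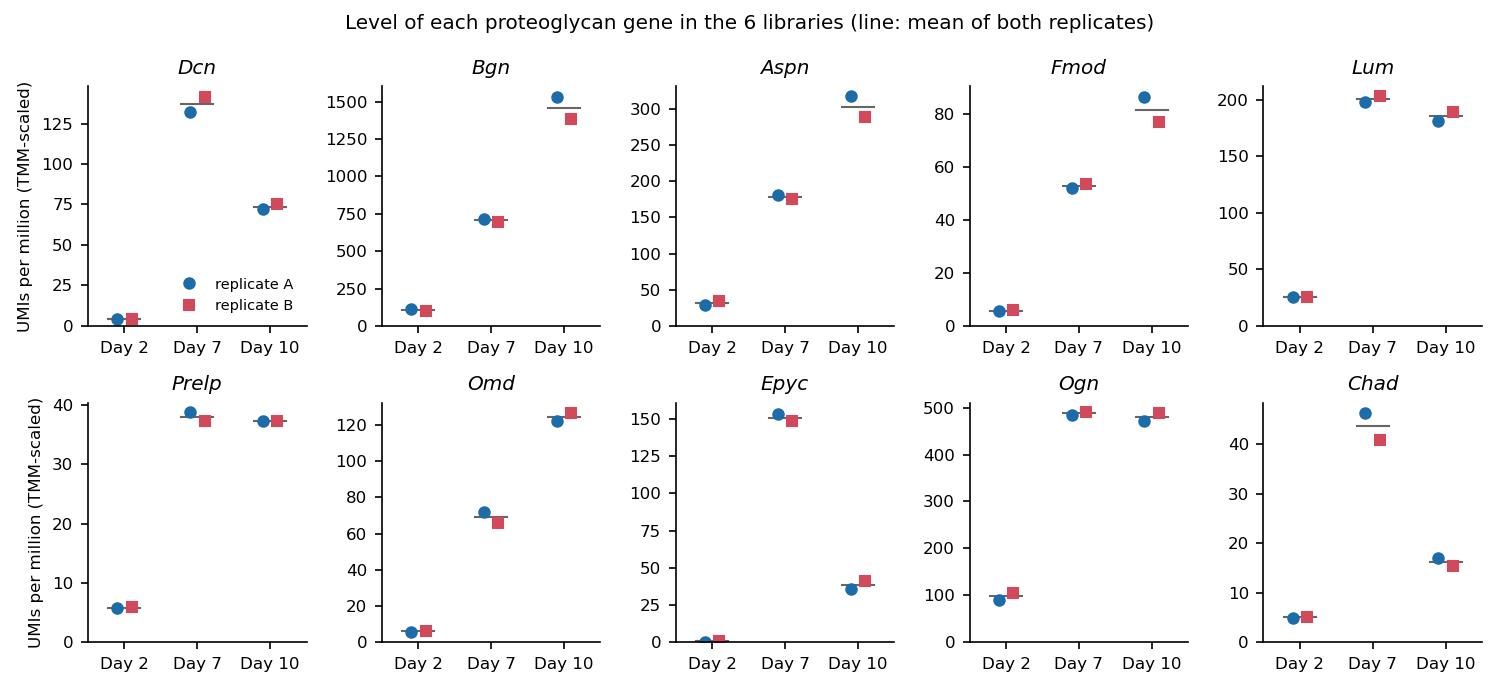
Level of each of the 10 members (vertical axis, CPM after TMM scaling, linear from 0) in both cultures of each day. Circles are replicate A, squares replicate B, and short lines the mean of both. *Epyc*, *Chad* and *Dcn* peaked at Day 7, *Bgn*, *Omd*, *Aspn* and *Fmod* were highest at Day 10, and *Lum*, *Prelp* and *Ogn* were nearly level after Day 7.

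From Day 2 to Day 7, 10 of 10 members were higher (edgeR quasi-likelihood test, Benjamini-Hochberg adjustment over 18987 genes), in a comparison in which 35.7% of all genes tested were called higher and 34.6% lower. Their median log2 fold change was 3.03, against 0.01 over all genes tested. *Epyc* changed most, by 7.68 (SE 0.191, adjusted p = 8.55e-09) on the log2 scale, or 205-fold. *Dcn* rose by 4.96 (SE 0.0661) and *Omd* by 3.49 (SE 0.0756). The smallest rise was that of *Ogn*, 2.31 (SE 0.0761, adjusted p = 3.32e-08). With the Day 2 replicate A or B library left out in turn, all 10 were still called, in fits that assume the lone Day 2 library to vary like those of the other days. Without TMM scaling the median of all genes shifted to −0.27 and the calls over all genes split into 4647 higher and 9325 lower, in place of 6772 and 6570, and the 10 members remained higher.

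From Day 7 to Day 10, 4 members rose and 3 fell, where 26.3% of all genes were called higher and 25.9% lower (edgeR, as above). *Bgn* rose by 1.05 (SE 0.0775, adjusted p = 3.13e-05), *Omd* by 0.85 (SE 0.0668), *Aspn* by 0.76 (SE 0.082) and *Fmod* by 0.63 (SE 0.0634) on the log2 scale. *Epyc* had a log2 fold change of −1.98 (SE 0.135, adjusted p = 2.15e-05), *Chad* of −1.43 (SE 0.0733) and *Dcn* of −0.89 (SE 0.0547). For the remaining members the 95% interval of the log2 difference ran from −0.23 to 0.00 for *Lum*, −0.14 to 0.08 for *Prelp* and −0.19 to 0.14 for *Ogn*. *Lum* missed the threshold narrowly (edgeR adjusted p = 0.0886) and was called when either Day 2 library was left out (adjusted p = 0.0391 and 0.0398). The summed level of 13 chondrocyte markers moved with *Epyc* and *Chad*: it was 2357 and 2572 CPM at Day 2, then 19742 and 18392 at Day 7 and finally 11929 and 10996 at Day 10. Sums of markers here are CPM without TMM factors. Cells of the clusters named chondrocyte-like further on made up 24.4% and 25.1% at Day 7 and 22.6% and 21.3% at Day 10. That of 6 perichondrium markers was 1419 and 1487 CPM at Day 2, then 4596 and 4282 at Day 7 and finally 8449 and 7648 at Day 10, and so rose at each step as *Bgn* did. The part of such shifts in whole-culture values was not tested, and the same changes within a class of cells are given further on.

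From Day 2 to Day 10 all 10 members were higher, where 39.0% of all genes were called higher and 38.2% lower. Their median log2 fold change was 3.54, and that of all genes 0.00. The range ran from *Chad*, 1.67 (SE 0.0778), to *Epyc*, 5.70 (SE 0.183), or 52.1-fold. *Omd* rose by 4.34 (SE 0.0779), *Bgn* by 3.80 (SE 0.0859), *Lum* by 2.86 (SE 0.0544) and *Ogn* by 2.29 (SE 0.0761). This comparison shares its libraries with the other two and is no separate evidence.

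**Figure D2:**
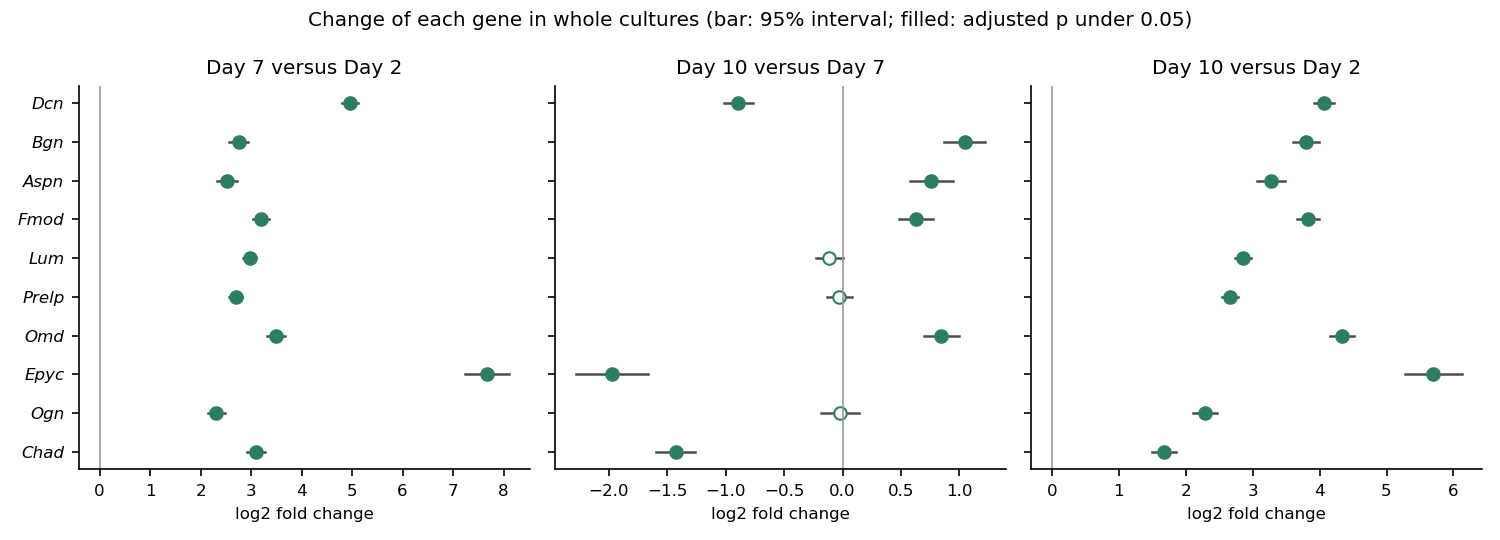
Log2 fold change (horizontal axis) of each member in whole cultures for the 3 comparisons of days, with 95% intervals from the edgeR fit as bars and filled points for adjusted p under 0.05. The 3 panels have different scales. All points lie above 0 for Day 7 versus Day 2 and for Day 10 versus Day 2, while the points for Day 10 versus Day 7 run from −1.98 (*Epyc*) to 1.05 (*Bgn*).

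Of 9 further genes of the family, 8 were tested, and from Day 2 to Day 7 5 were higher (35.7% of all genes were), 1 was lower (34.6%) and 2 were not called. From Day 7 to Day 10 the counts were 3 higher and 3 lower, against 26.3% and 25.9% of all genes, and from Day 2 to Day 10 they were 4 and 2, against 39.0% and 38.2%. *Podn* (podocan) went from 0.286 and 0.31 CPM at Day 2 to 12.7 and 15.1 at Day 7 and 22.8 and 20.7 at Day 10, a 73.1-fold difference between the outer days. *Chadl*, a relative of chondroadherin made by cartilage, had 3.7 and 3.11 CPM at Day 2, then 46.5 and 45.1 at Day 7 and lastly 41.7 and 36.1 at Day 10. *Kera* (keratocan), the neighbour of *Lum* and *Epyc* on chromosome 10, stayed at or below 0.49 CPM in every library, and *Ecm2*, next to *Aspn*, had 2.45 and 3.17 CPM at Day 2, then 3.28 and 4.17 at Day 7 and lastly 1.99 and 1.84 at Day 10. The eye genes *Nyx* and *Optc* had at most 0.124 and 1.63 CPM. *Tsku* stood between 3.61 and 5.33 CPM and *Podnl1* between 1.47 and 3.75. *Nepn* was below the limit for testing.

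The enzymes that build the sugar chains and the collagens the members bind were examined as lists. Of 29 genes for chondroitin, dermatan and keratan sulphate synthesis, 22 were higher, 6 lower and 1 not called at Day 7 versus Day 2, with a median log2 fold change of 0.76, where 35.7% of all genes were higher and 34.6% lower. At Day 10 versus Day 7 the counts were 11, 8 and 10 (median 0.04), beside 26.3% and 25.9% of all genes, and at Day 10 versus Day 2 they were 22, 5 and 2 (median 0.73), beside 39.0% and 38.2%. The largest differences between the outer days were those of *Chst13*, 3.35 (SE 0.416), *Csgalnact1*, 2.58 (SE 0.0898), and *Xylt1*, 2.30 (SE 0.0637). *Chst13* was near the floor, with 9 and 5 UMIs at Day 2 and 0.274 and 0.392 CPM at Day 10. These genes encode a chondroitin sulphotransferase, an enzyme that starts chondroitin chains, and the enzyme that adds the first sugar to the core protein. The collagen list held genes of fibrillar collagens, of the fibril-associated collagens XII and XIV and of collagen VI, which forms beaded microfibrils. All 13 genes of this list rose from Day 2 to Day 7, 9 rose and 4 fell from Day 7 to Day 10, and all 13 were higher at Day 10 than at Day 2, against the same shares of all genes. The largest rises between the outer days were those of *Col11a2*, 4.45 (SE 0.117), *Col1a2*, 3.74 (SE 0.0819), and *Col2a1*, 3.29 (SE 0.101). The median log2 fold change of the collagens was 2.35 for Day 7 versus Day 2, 0.34 for Day 10 versus Day 7 and 2.69 for Day 10 versus Day 2.

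Counted over cells, the share with at least 1 UMI of *Epyc* was 1.05% and 0.77% in the Day 2 cultures, 25.8% and 24.8% in those of Day 7 and 13.4% and 13.2% in those of Day 10, replicate A first. After each cell was thinned to 1000 UMIs, which left out the shallower cells (9328 of 9448, 10180 of 10385 and 9828 of 9949 cells remained in 3 libraries, all in the others), the shares were 0.0858% and 0.0728% at Day 2, then 7.56% and 6.96% at Day 7 and 2.5% and 2.57% by Day 10. The exact 95% binomial intervals, which cover counting error only, ran from 0.852% to 1.27% for Day 2 replicate A and from 25.1% to 26.6% for Day 7 replicate A before thinning. *Bgn* was seen in 66.9% and 40.5% at Day 2, then 82% and 78.6% at Day 7 and 96.5% and 93.1% by Day 10. After thinning its shares were 10.3% and 9.41% at Day 2, then 42.4% and 37% at Day 7 and 66.6% and 59.4% by Day 10. Of the Day 2 libraries, which differed in depth, replicate A had the higher share for all 10 members before thinning and for 7 after it, the exceptions being *Aspn*, *Fmod* and *Ogn*. The cells with a *Chad* UMI made up 7.71% and 3.96% at Day 2, then 23.6% and 22.2% at Day 7 and 15.9% and 14.2% by Day 10, and after thinning 0.675% and 0.443% at Day 2, then 3.85% and 2.93% at Day 7 and 1.79% and 1.84% by Day 10. Free RNA gives UMIs in cells that do not express a gene, and Day 10 immune-like cells, taken as a class that should lack these genes, gave the background. In them *Bgn* had a UMI in 72% and 65.2% of cells, *Ogn* in 38.1% and 37.8%, *Epyc* in 1.69% and 4.27% and *Chad* in 3.39% and 1.83%. These cells had medians of 21232 and 21872 UMIs, and the whole Day 10 libraries 24197 and 22128. *Aspn* had 37.3% and 28.7%, and the other 5 members had shares from 5.93% (*Prelp*) to 24.6% (*Lum*). The few Day 7 immune-like cells had 64.3% and 30.2% for *Lum* and 53.6% and 25.6% for *Aspn*, and at Day 2 they were too few to give a background.

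To see which lineage each gene marks, cells were clustered anew at each day with the 10 members left out of the features, and clusters were named from marker lists of 3 to 13 genes. A pair of member and class was called enriched where the class exceeded the mean of the day's other classes by more than 0.25 on the log2 scale with an edgeR adjusted p under 0.05, and where 25% or more of its cells held a UMI of the gene. In the mean of the other classes each had the same weight, unnamed clusters and the 14 and 10 erythroid-like cells of Day 2 included. Classes with hardly any UMIs of a gene thus enlarge its enrichment elsewhere. Because genes that vary with a member helped to draw the clusters, the p-values of this rule describe the classes. By this rule 10 of 70 pairs were enriched at Day 2, where 12.3% of all gene and class pairs were, 23 of 70 at Day 7 (19.0%) and 29 of 80 at Day 10 (21.5%). The limit of 25% lay below the share of immune-like cells with a UMI of *Bgn*, *Ogn* or *Aspn*, at Day 7 also of *Lum* in both replicates and of *Dcn* and *Fmod* in replicate A, so that for these genes enrichment is a statement on level. At Day 7, the share of *Lum* in joint interzone-like cells (62.7% and 56.1%) was at or below that background in at least 1 replicate. Of the Day 2 pairs, *Bgn* (80.9% and 38.1%) and *Ogn* (54.8% and 34.3%) in contractile cells and *Aspn* (24.1% and 27.9%) in dividing cells lay at or below Day 10 immune-like cells in at least 1 replicate. Whole cultures held far less of these genes at Day 2, such as 109.9 and 99.2 CPM of *Bgn*, against 1532 and 1385 at Day 10. The Day 10 background can therefore not decide whether these Day 2 shares are free RNA. All 4 pairs are counted as enriched by their level, and no expression was read from their shares. Clusters left unnamed held 27.8% to 48.1% of the cells of a library. At Day 2 the unnamed cluster 0 (441 and 5533 cells) and cluster 3 of the contractile class (81 and 2418) were mostly of the shallow replicate B, and with either library left out 8 to 10 pairs were enriched at that day, by values with no test. Cluster 3 had the tendon gene *Tnmd* beside the contractile marker *Cnn1* among its 10 leading genes. It gave 2418 of the 4615 replicate B cells of the contractile class. Levels within a class are CPM of the UMIs of that class, given for replicates A and B.

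*Chad*, *Epyc*, *Prelp* and *Omd* were highest, of the named classes, in chondrocyte-like cells at each day, apart from *Omd* in 1 library at Day 7 and *Epyc* in 1 at Day 2. Chondrocyte-like *Chad* was at 26.5 and 26.4 CPM at Day 2, then 83.5 and 79 at Day 7 and finally 51.4 and 52.2 at Day 10. The next named class was at 6.1 and 5.28 at Day 2 and 32 and 25.9 at Day 7 (dividing cells), and at Day 10 osteoblast-like cells had 7.95 and 5.71, perichondrium-like cells 7.17 and 5.74 and tenocyte-like cells 1.84 and 2.02. Its enrichment in chondrocyte-like cells was 4.47 (SE 0.224) at Day 2, 2.93 (SE 0.107) at Day 7 and 3.66 (SE 0.0904) at Day 10 on the log2 scale. Chondrocyte-like *Epyc* stood at 1.72 and 1.52 CPM at Day 2, 276 and 280.4 by Day 7 and 117 and 141 by Day 10. At Day 7 the dividing cells were next with 153 and 142, and tenocyte-like cells had 22.6 and 31.5. At Day 2 no class had an *Epyc* UMI in more than 2.93% of its cells in either library, and none met the rule.

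*Prelp* and *Omd* were enriched in both chondrocyte-like and osteoblast-like cells at Day 10. *Prelp* in chondrocyte-like cells was 15.7 and 19 CPM at Day 2, 51.7 and 52.6 by Day 7 and 86.6 and 87.9 by Day 10. Osteoblast-like cells, which the rule used here named at Day 10 only, had 51.1 and 49.4. The study annotated osteoblasts at Day 2 and Day 7 as well, by genes such as *Cnn1* and *Spp1*, which stood on the contractile list here. Contractile mesenchyme-like cells (*Acta2*, *Tagln*, *Cnn1*) had 3.68 and 4.3. The values for *Omd* in chondrocyte-like cells were 16.7 and 18.2 CPM at Day 2, 97.3 and 99.2 by Day 7 and 338 and 366 by Day 10, and in Day 10 osteoblast-like cells 165 and 167, with log2 enrichments of 3.19 (SE 0.161) and 1.87 (SE 0.188) at Day 10. At Day 7, joint interzone-like cells had 105 and 66.7 CPM of *Omd*, 1 culture above and the other below the chondrocyte-like cells. At Day 10 tenocyte-like cells had 12.3 and 18.9 CPM of *Omd*, and contractile cells 5.97 and 6.52.

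*Dcn* was also a gene of chondrocyte-like cells in these cultures, with 9.9 and 8.96 CPM at Day 2, then 199.5 and 226 at Day 7 and finally 123 and 132 at Day 10. It was enriched there at Day 7 and Day 10 but not at Day 2, when interdigital mesenchyme-like cells had 8.31 and 10.7. At Day 7 joint interzone-like cells followed with 165 and 150.3 and tenocyte-like cells, in which it was enriched as well, with 117 and 141. Dividing cells had 104 and 96.3. At Day 10 surface-like cells (*Wnt10a*, *Stmn2*) had 91.6 and 136, so that their replicates lay on either side of the chondrocyte-like value. An unnamed Day 10 cluster led by *Gpha2*, *Igf1* and *Car9* (cluster 11) had 136 and 116. Contractile cells were the lowest of the mesenchymal classes, at 22.5 and 20.3 at Day 7 and 19.6 and 8.56 at Day 10.

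*Aspn*, *Ogn* and *Lum* were enriched in tenocyte-like cells at Day 7, *Ogn* and *Lum* also in joint interzone-like cells, *Lum* also in chondrocyte-like cells and *Aspn* also in contractile cells. *Dcn*, *Bgn*, *Fmod* and *Prelp* were enriched in tenocyte-like cells as well. For *Prelp* their level, 34.6 and 35.7 CPM, was below that of dividing cells (42.2 and 43.4) and of chondrocyte-like cells. Chondrocyte-like *Lum* was 193 and 199 CPM at Day 7, an enrichment of 0.88 (SE 0.19). Immune-like cells had 199.6 and 34.1 at that day, so that this level was not clearly above background. The tenocyte list held *Scx*, *Tnmd* and other tendon genes, and 4 of its 6 markers were enriched in the tenocyte-like cluster of either day. *Tnmd* was among the 10 leading genes at both days, *Scx* at Day 10 only. At Day 7, contractile cells had 228 and 213 CPM of *Aspn* and chondrocyte-like cells 38.8 and 35.2. Tenocyte-like cells had 788 and 783, an enrichment of 2.62 (SE 0.124). At Day 10 they had 575 and 540.4, and the *Gpha2* cluster had 954 and 945. At Day 2 no cluster was tenocyte-like by the rule, and the highest *Aspn*, 79.4 and 86.2 CPM, was in an unnamed cluster led by *Pkdcc*, *Meis2*, *Wnt4* and *Scx* (cluster 2, 2079 and 1543 cells). That cluster also had the highest Day 2 *Ogn*, 200.3 and 224 CPM, while chondrocyte-like cells had 44.9 and 51.8.

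*Ogn* was highest at Day 7 in joint interzone-like cells, 1428 and 1362 CPM, and in tenocyte-like cells, 1184 and 1222, with dividing cells at 232 and 246. At Day 10 the *Gpha2* cluster had 1282 and 1401, a cluster led by the lubricin gene *Prg4* and by *Wfdc1* (cluster 5) 749.9 and 759, and tenocyte-like cells 631 and 624. Cluster 9 of the chondrocyte-like cells, at 917 and 1051, lay above the *Prg4* cluster, although the chondrocyte-like class as a whole had 402 and 428. *Lum* in tenocyte-like cells at Day 7 was 526 and 538 CPM, followed by joint interzone-like cells with 347 and 328. At Day 10 it was highest in the *Gpha2* cluster, 447 and 447, and, of the named classes, in surface-like, 313 and 409.8, and osteoblast-like cells, 288 and 294. Chondrocyte-like *Lum* was 54.9 and 54.9 CPM at Day 2, when it was the highest of the named classes.

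*Bgn* and *Fmod* were enriched in several classes. *Bgn* was enriched at Day 7 in contractile, 1153 and 1115 CPM, tenocyte-like, 817 and 867, and dividing cells, 782 and 769, and at Day 10 in the same 3 classes, at 1929 and 1894 (contractile), 1852 and 1729 (tenocyte-like) and 1649.8 and 1478 (dividing). The *Prg4* cluster reached 2119.9 and 1908, while chondrocyte-like cells had 683 and 672 and immune-like cells 293 and 336. *Fmod* in tenocyte-like cells was 79.4 and 90.3 CPM at Day 7 and 113 and 111 at Day 10. The Day 10 perichondrium-like cells had 197 and 137, but their cluster was shallow (median 5191 and 4107 UMIs) and led by mitochondrial genes and *Lars2*, and the 2 replicates differed. The lowest *Fmod* of the named classes at Day 10 was in surface-like cells, 15 and 10.1, and *Fmod* was not enriched in any class at Day 2.

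**Figure D3:**
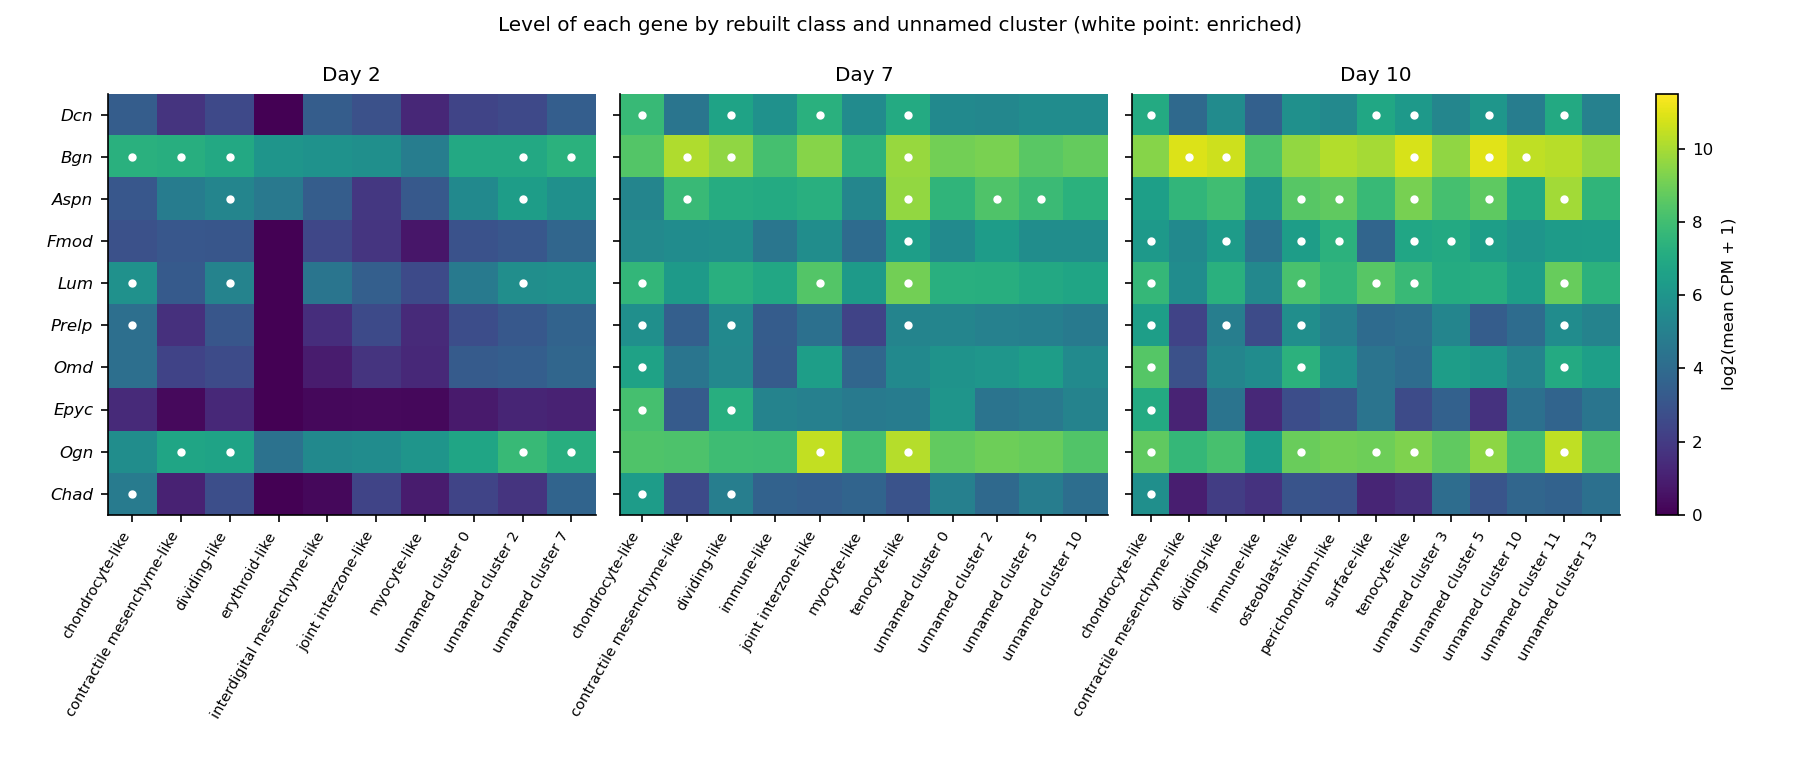
Level of each member (rows) in each named class and unnamed cluster (columns) of the 3 days, as the colour of log2(mean CPM of both replicates + 1), with a white point on pairs called enriched. Colours compare classes and days within a row, not genes. *Chad*, *Epyc*, *Prelp* and *Omd* are enriched in chondrocyte-like cells at Day 7 and Day 10, and *Aspn* in tenocyte-like cells at both days.

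Day 10 chondrocyte-like cells were made up of 4 clusters, and the members did not share 1 order over them. Cluster 9 (388 and 362 cells) had 744 and 742 CPM of *Omd*, 245 and 239 of *Dcn*, 178 and 151 of *Prelp* and 91.1 and 96.8 of *Chad*. These genes were highest there in both libraries, and so were *Lum* (395 and 317), *Fmod* (190 and 136) and *Ogn* (917 and 1051). Cluster 14 (216 and 173 cells), the only one of the 4 with *Ihh*, a gene of prehypertrophic chondrocytes, among its 10 leading genes, had 91.1 and 74.2 of *Omd*, 44.8 and 60.3 of *Dcn* and 52.3 and 75.9 of *Epyc*. *Bgn* had another order, with 1335 and 1371 in cluster 14, 1327 and 1078 in cluster 9 and 554 and 544 in cluster 0, the largest (1385 and 1139 cells), in which *Epyc* was 124 and 157. Clusters differed in depth as well: the median UMIs per cell were 36539 and 33364 in cluster 0, 8229 and 8193 in cluster 9, and 19257 and 30856 in cluster 14. These are values with no test.

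**Figure D4:**
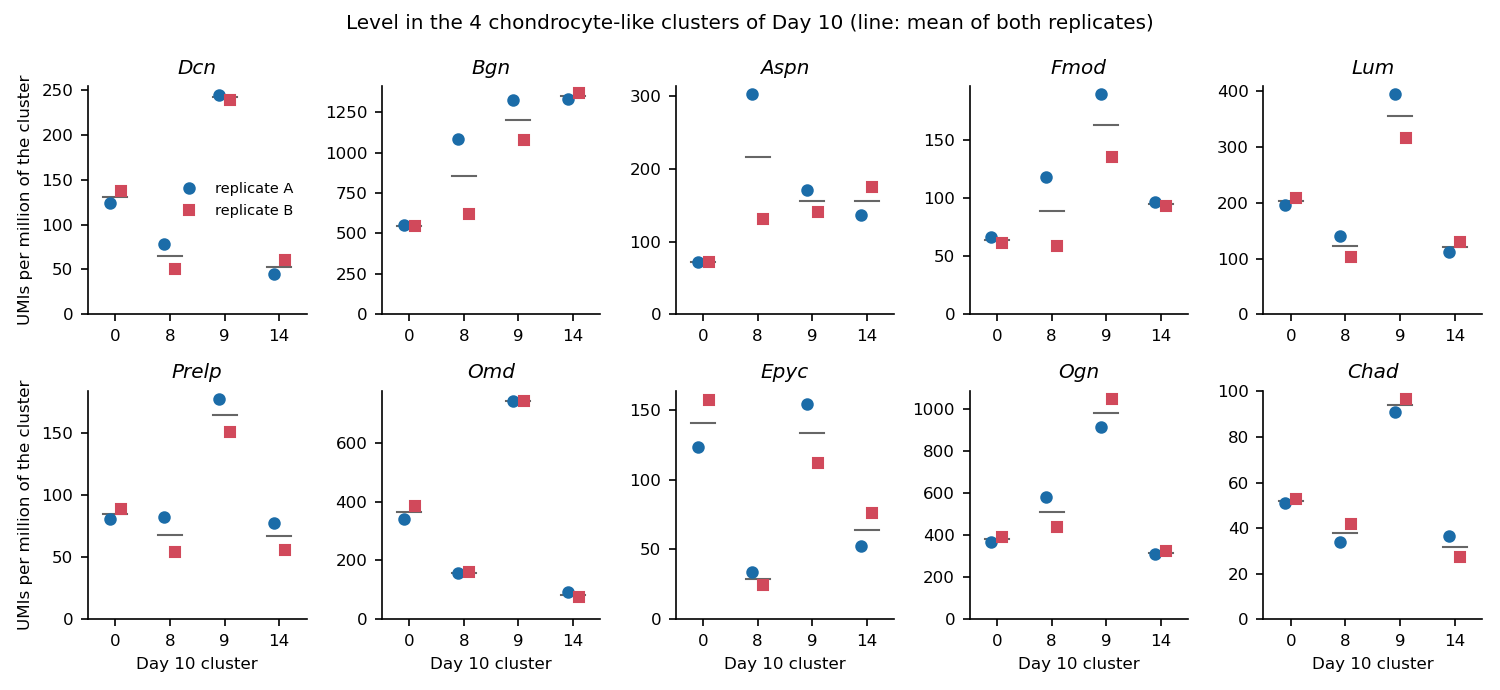
Level of each member (vertical axis, CPM of the cluster, linear from 0) in the 4 clusters that made up the Day 10 chondrocyte-like cells, with circles for replicate A, squares for replicate B and lines for their mean. *Omd*, *Dcn*, *Prelp*, *Chad*, *Lum*, *Fmod* and *Ogn* are highest in cluster 9, whereas *Bgn* is lowest in cluster 0 and high in clusters 9 and 14.

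The change from Day 2 to Day 7 was also measured within classes of cells named at both days. In chondrocyte-like cells 10 of 10 members were higher at Day 7 (edgeR on UMIs summed per class and library), where 36.2% of genes tested were. *Dcn* rose by 4.99 (SE 0.092), *Epyc* by 7.92 (SE 0.12) and *Chad* by 2.12 (SE 0.0603) on the log2 scale. Of the 10, only *Aspn* turned under an alternative, at −0.16 with 0.5 times the resolution (adjusted p = 0.026, edgeR, and so called lower) in place of 2.76, and at 2 times the resolution it was 1.01. All 10 members were also higher in joint interzone-like (34.0% of genes), contractile (30.6%) and dividing cells (34.0%), and 8 of the 9 tested in the few myocyte-like cells (10.6%), and free RNA was not taken out of any class. Set against the few Day 7 immune-like cells, some of these levels were no higher than background. Contractile cells had 22.5 and 20.3 CPM of *Dcn* and 10.9 and 7.1 of *Epyc* at Day 7, while immune-like cells had 87.3 and 21.9 and 56.7 and 12.2. Chondrocyte-like *Aspn*, 38.8 and 35.2, was below the 172 and 84.8 of immune-like cells. Levels that in at least 1 library were at or below that of at least 1 immune-like library were also those of *Bgn*, *Lum* and *Ogn* in chondrocyte-like, *Lum*, *Prelp*, *Ogn* and *Chad* in contractile, *Aspn*, *Lum* and *Ogn* in dividing, and *Aspn*, *Epyc* and *Chad* in joint interzone-like cells, and those of all 10 members in myocyte-like cells. Rises to such levels are differences in the UMIs of a class and were not read as expression by its cells. The joint interzone-like cluster had *Gdf5* among its 10 leading genes at Day 2, beside the interdigital marker *Aldh1a2* and the tenocyte marker *Col14a1*. At Day 7, when *Gas1* and *Osr1* led it, no marker of its class was among them. The leading genes of the 2 days shared only *Angptl1*. The contractile class of Day 2 included cluster 3, which had the tendon gene *Tnmd* among its leading genes.

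From Day 7 to Day 10, chondrocyte-like cells had 6 members higher (20.5% of genes tested were), 3 lower (19.9%) and 1 not called. *Omd* rose by 1.74 (SE 0.059, adjusted p = 1.38e-11), *Aspn* by 1.18 (SE 0.0612), *Bgn* by 0.91 (SE 0.0613), *Fmod* by 0.74 (SE 0.077) and *Prelp* by 0.65 (SE 0.0615). *Aspn* and *Bgn*, and *Ogn* given next, started from Day 7 levels that in at least 1 library were at or below at least 1 immune-like library. The sizes of these rises were not read as changes of expression. *Ogn*, at 0.26 (SE 0.0651, adjusted p = 0.0049), lost its call without Day 7 replicate B (adjusted p = 0.0746, edgeR) and at 2 times the resolution, where it was at 0.15 (adjusted p = 0.0916). The log2 fold changes of *Epyc*, *Dcn* and *Chad* were −1.21 (SE 0.0695, adjusted p = 4.13e-09), −0.83 (SE 0.0678) and −0.75 (SE 0.0528). The fall of these 3 genes in whole cultures was thus also measured inside the chondrocyte-like class, with sizes of −1.98, −0.89 and −1.43 in whole cultures. *Prelp* and *Ogn* were higher in this class although they were not called in whole cultures, and *Lum* was at −0.06 (SE 0.0541). Compared with Day 2, Day 10 chondrocyte-like cells had all 10 members higher (38.5% of genes). *Chad* did not rise in each class over these days: in dividing cells it was lower, at −0.58 (SE 0.15, adjusted p = 0.00351) by edgeR, and in contractile cells it was at −0.03 (SE 0.326).

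Tenocyte-like cells showed another picture between Day 7 and Day 10, with 2 members higher (30.1% of genes tested) and 8 lower (29.6%). *Bgn* rose by 1.10 (SE 0.054, adjusted p = 1.36e-10) and *Fmod* by 0.41 (SE 0.0612). The falls ran from −0.48 (SE 0.0513) for *Aspn* to −2.37 (SE 0.143) for *Epyc*, with *Omd* at −1.44 (SE 0.138), *Lum* at −1.25 (SE 0.0512) and *Ogn* at −0.93 (SE 0.0498). Day 7 tenocyte-like *Epyc*, 22.6 and 31.5 CPM, and *Chad*, 6.07 and 7.46, lay between the levels of the 2 immune-like libraries, 56.7 and 12.2 and 19.6 and 2.62, so that their falls, and the differences between classes that use them, were not read as changes of expression in these cells. The class was 1 cluster at each day, and 5 of the 10 leading genes were shared between the days. *Igf1* and *Gpha2* were among those of Day 7 alone, while at Day 10 *Gpha2* and *Igf1* led the unnamed cluster 11, which was outside the class. That cluster had 954 and 945 CPM of *Aspn*, 1282 and 1401 of *Ogn* and 447 and 447 of *Lum* at Day 10, beside 788 and 783, 1184 and 1222 and 526 and 538 in the Day 7 tenocyte-like cells. The falls rested on the clustering: at 2 times the resolution *Dcn*, *Aspn*, *Omd* and *Ogn* turned to 0.25, 0.29, 0.28 and 0.04, and *Chad* lost its call, while *Lum*, *Prelp* and *Epyc* stayed lower. Contractile and dividing cells gave 1 member higher (17.8% of genes), 6 lower (18.8%) and 3 not called, and 3 higher (20.9%), 4 lower (21.3%) and 3 not called. In contractile cells *Lum*, *Prelp*, *Ogn*, *Chad* and *Epyc* fell from Day 7 levels that in at least 1 library were at or below at least 1 immune-like library. The rise of *Aspn* in dividing cells started from such a level too. These changes were not read as changes of expression. The contractile class held 2 clusters at Day 7, 1 of them with *Prg4* among its leading genes, and 1 cluster at Day 10, when *Prg4* led the unnamed cluster 5, outside the class.

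**Figure D5:**
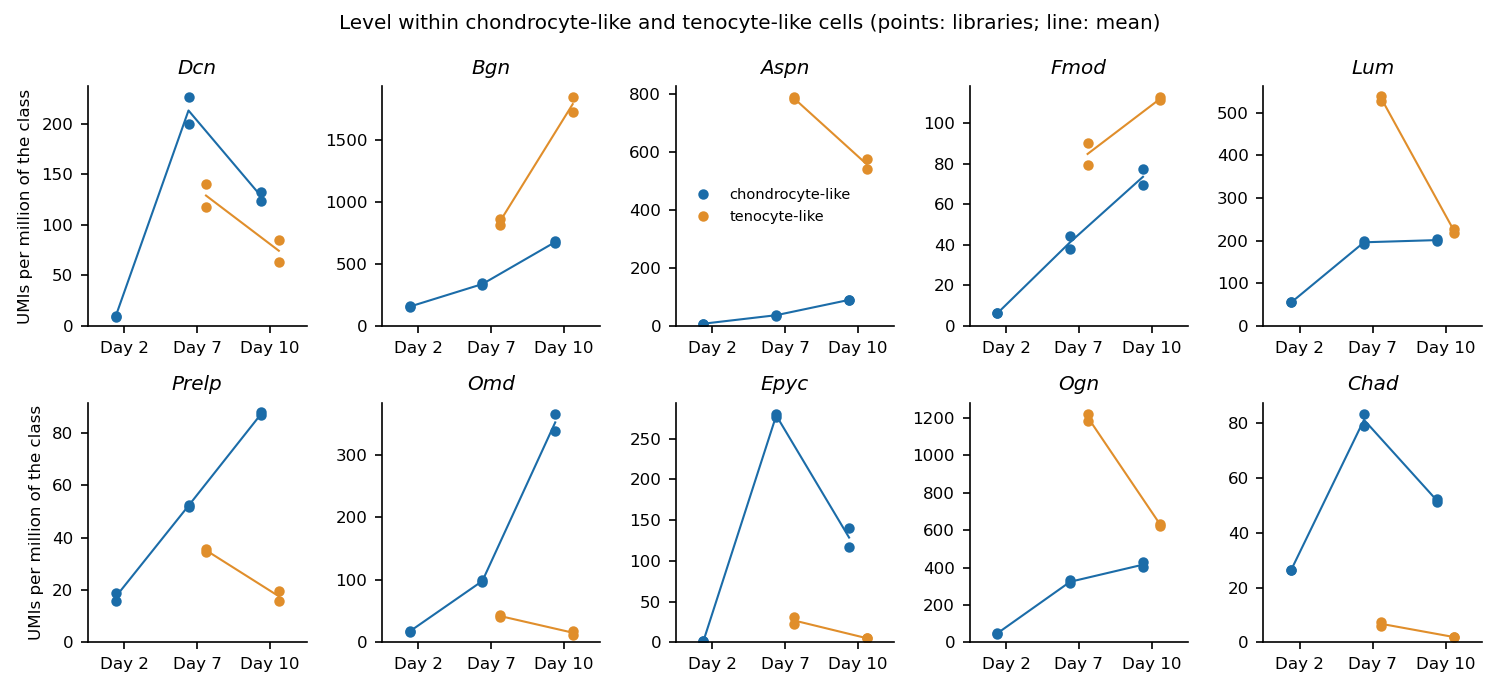
Level of each member (vertical axis, CPM of the class, linear from 0) within chondrocyte-like cells at the 3 days and within tenocyte-like cells at Day 7 and Day 10. Points are libraries and lines join the means. From Day 7 to Day 10 *Omd*, *Aspn*, *Prelp* and *Ogn* go up in chondrocyte-like and down in tenocyte-like cells, but *Aspn*, *Omd* and *Ogn* turn upwards in tenocyte-like cells at 2 times the resolution.

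The difference between the 2 classes was tested directly, as an interaction of class and day from Day 7 to Day 10. Both classes come from the same libraries, but the fit had no term for the library and took their sums as independent. The Day 2 chondrocyte-like sums were also in the fit and entered its estimate of the spread. The change was more positive in chondrocyte-like cells for 8 of 10 members, in a test that called 36.4% of 15859 genes in either direction. *Omd* differed most, by 3.18 (SE 0.163, adjusted p = 3.97e-10) on the log2 scale (edgeR), followed by *Aspn*, 1.66 (SE 0.0861), and *Prelp*, 1.63 (SE 0.124). The value for *Aspn* starts from a chondrocyte-like level at Day 7 that was below that of immune-like cells. That for *Omd* ends at a Day 10 tenocyte-like level of 12.3 and 18.9 CPM, beside 14.8 and 80.9 in immune-like cells of that day. *Bgn* at −0.20 (SE 0.0845, adjusted p = 0.0779) and *Dcn* at −0.05 (SE 0.154, adjusted p = 0.83) did not pass. *Fmod*, at 0.32 (SE 0.116, adjusted p = 0.0405), lost its call when 3 of the 4 libraries were left out in turn. At 2 times the resolution *Omd* and *Aspn* shrank to 1.37 and 0.83 but were still called, *Chad* reversed to −0.58, *Ogn* and *Fmod* lost their calls at 0.12 and 0.15, and *Dcn* was called at −1.14. Without integration *Bgn* was called at −0.34. At 0.5 times the resolution no cluster was tenocyte-like at either day, so that the difference could not be tested.

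Across 42 clusters of at least 50 cells over the 3 days, the genes with levels most like each member were named by the Pearson correlation of log2(CPM + 1), among 11602 genes. Clusters of a day share libraries and differ in depth, so that r is a description with no p. *Chad* was most like *Col9a2* (r = 0.957), *Col9a3* (r = 0.957) and *Susd5* (r = 0.956), the first pair being collagens of cartilage. *Epyc* was most like *S100b* (r = 0.953), *Fbln7* (r = 0.948) and *Snorc* (r = 0.942), and *Prelp* like *Col11a1* (r = 0.921), *Trpv4* (r = 0.916) and *Colgalt1* (r = 0.91). *Omd* had *Fam180a* (r = 0.913), *Prelp* (r = 0.907) and *Nt5e* (r = 0.905) as its nearest, 1 of them a member. The nearest of *Dcn* were *Plod1* (r = 0.913), *Tmem45a* (r = 0.911) and *Ecrg4* (r = 0.907), and those of *Lum* were *Tmem45a* (r = 0.928), *Ecrg4* (r = 0.90) and *Dcn* (r = 0.894), again with 1 member and with 2 genes shared with *Dcn*. *Aspn* was most like *Thbs2* (r = 0.945), *Penk* (r = 0.936) and *Fndc1* (r = 0.915), the first of which is a perichondrium marker. *Fmod* stood near *Col1a2* (r = 0.935), *Fam129a* (r = 0.932) and *Osmr* (r = 0.923), and *Bgn* near *Ephx1* (r = 0.96), *Emp2* (r = 0.946) and *Mxra8* (r = 0.944). The 3 genes most like *Ogn* included *Htra1* (r = 0.883) and *B3gnt9* (r = 0.881). Among pairs of members r was highest for *Bgn* and *Fmod* (0.908) and for *Prelp* and *Omd* (0.907), and lowest for *Aspn* and *Chad* (0.158) and for *Bgn* and *Chad* (0.288).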

How the data were processed

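Single-cell libraries of DID cultures at Day 2, Day 7 and Day 10 (2 cultures a day) were analysed. The authors made them with a 10x Genomics 3′ v3.1 kit, and the submitters' processing notes name Cell Ranger 6.1.2, STAR, Seurat 4.1.0 and GRCm38. The deposited values are UMI counts per gene and barcode, not normalized. Which genes or antisense partners Cell Ranger counted by strand was not given in the sources used here.

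The study's limits on cells were applied (over 800 or 1000 UMIs, 200 to 7500 genes, mitochondrial share under 25%, 30% or 40%, ribosomal share under 35% or 40%), which left 9448 to 16486 of 11518 to 20188 barcodes. No doublet caller was run, and leaving out cells over the 95th percentile of UMIs stood in for one. Counts were summed per library and tested with edgeR 4.0.16 (filterByExpr, TMM, quasi-likelihood test, day as the only term) over 18987 genes, called at a Benjamini-Hochberg adjusted p under 0.05. The common biological coefficient of variation was 0.0689, with 3 residual degrees of freedom. Replicates differed beyond counting noise (chi-square per degree of freedom 97.9, 13.5 and 41.0 at Day 2, Day 7 and Day 10). Counts were also simulated for Day 10 versus Day 2 with 18519 genes. The test called 98% of 50 genes changed by 1.5-fold and 100% of those changed by 2-, 4- or 0.5-fold. Every simulated gene had the same spread and only well-counted genes were changed, so that these shares do not cover scarce or more variable genes. Each library held 178022112 to 260245417 UMIs, so that depth limits chiefly the classes of few cells.

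Cells of each day were clustered with Seurat 5.3.0 (SCTransform, anchor integration over 3000 features without the members, 35 dimensions, resolution 0.5, 0.5 and 0.7). A cluster was named where at least 3 markers of a class were enriched and no other class led its genes. The details of this rule were set after the leading genes were seen, and the classes can differ from those of the study. The study annotated tenocytes at Day 2 already, and osteoblasts at Day 2, Day 7 and Day 10. Its osteoblast markers *Cnn1*, *Igfbp7* and *Spp1* stood here on the contractile list, and *Wnt10a* and *Stmn2* on the surface list. Sums per class and library with at least 10 cells were tested with edgeR, with library as a term within a day and day as the term between days. The difference between classes was fitted by class and day, with no term for the library. The planned test of the Day 10 versus Day 2 change between chondrocyte-like and tenocyte-like cells was not run at this resolution because no Day 2 cluster was tenocyte-like, and Day 10 versus Day 7 was tested in its place, chosen after seeing the data.

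The 10 members are named throughout, with the other family genes, the 3 genes of each list with the largest change from Day 2 to Day 10, the 3 genes most like each member (1 of which is not reported here) and the leading genes of unnamed clusters. Members and lists were chosen with earlier results of these data known. DESeq2 1.42.0, other scalings, filters, cell limits, resolutions, no integration, a replicate block and each library left out were the alternatives. Replicate letters marked independent cultures of a day, and samples with the same letter did not deviate together (correlations of −0.009, −0.077 and 0.010 between days), so that the letters were not taken as pairs. Python 3.11.15 and R 4.3.3 were used.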

Additional observations from a re-analysis of the deposited data

Results flagged for a closer look

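The change from Day 7 to Day 10 differed between chondrocyte-like and tenocyte-like cells for 8 members, by the edgeR test of the difference itself, which called 36.4% of all genes tested. The fit took sums of both classes from the same library as independent. Chondrocyte-like minus tenocyte-like, the log2 difference was 3.18 for *Omd*, 1.66 for *Aspn*, 1.63 for *Prelp*, 1.19 for *Lum*, 1.18 for *Ogn*, 1.16 for *Epyc*, 1.06 for *Chad* and 0.32 for *Fmod*. Day 7 levels of *Aspn*, *Lum* and *Ogn* in chondrocyte-like cells, and of *Epyc* and *Chad* in tenocyte-like cells, were not all above those of immune-like cells. At Day 10 tenocyte-like cells had 12.3 and 18.9 CPM of *Omd*, beside 14.8 and 80.9 in immune-like cells. The differences for these genes were not read as changes of expression. At 2 times the resolution of clustering *Ogn* and *Fmod* were not called (0.12 and 0.15), *Chad* turned to −0.58 and *Omd* and *Aspn* shrank to 1.37 and 0.83, and at 0.5 times no cluster was tenocyte-like, so that the test could not be run. The test was added after seeing the data, and the classes were rebuilt at each day: in the order of replicates, tenocyte-like cells numbered 590 and 691 (Day 7) or 1341 and 1109 (Day 10). Their median depth was 16122 and 16075 UMIs at the earlier of these days, and 29080 and 27819 at the later. Of the 10 leading genes of the tenocyte-like cluster 5 were shared between the days, and an unnamed Day 10 cluster led by *Gpha2* and *Igf1* was outside the class. The part of such shifts in the difference was not tested.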

How the results depend on the processing

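In whole cultures, 442 log2 fold changes of members kept their direction and their side of the threshold under the alternatives, while 5 turned and 3 became called, and the counts of members called were the same or within 1.5 times in all 90 cases. The exceptions were changes of 3 genes between Day 7 and Day 10. *Ogn* turned to 0.00038 without TMM factors, 0.016 with all deposited barcodes and −0.041 to 0.0049 over the libraries left out in turn, and *Prelp* to 0.0072 with all barcodes and −0.052 to 0.0015 over the libraries left out. *Lum* became called at −0.16 with the cells over the 95th percentile of UMIs left out and at −0.11 without either Day 2 library. The replicate block changed no call of a member, and over all genes it gave 13135 calls in place of 13342 for Day 7 versus Day 2, 9607 in place of 9913 for Day 10 versus Day 7, and 14524 in place of 14670 for Day 10 versus Day 2.

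The classes depended on the resolution of clustering. Members called between days within a class were counted once for each class and comparison of days, here and below, and the comparisons share libraries. With 0.5 times the resolution no cluster was tenocyte-like at Day 7 or Day 10, a class that gave 8 of the 23 such calls lower. At that resolution 13 pairs of member and class were enriched at Day 7 in place of 23, and 15 such calls were lower in place of 23. *Aspn* turned to −0.16 in chondrocyte-like cells from Day 2 to Day 7, and the highest class was as reported for 19 of 30 members and days. With 2 times the resolution, 14 such calls were lower, *Dcn*, *Aspn*, *Omd* and *Ogn* turned to 0.25, 0.29, 0.28 and 0.045 in tenocyte-like cells, and the difference between the classes turned to −0.58 for *Chad*. Without TMM factors *Lum* was at 0.037 from Day 7 to Day 10 in chondrocyte-like cells, and the difference for *Dcn* at 0.065, and with single libraries left out it ran from −0.22 to 0.14. The cause of the other shifts was not tested. With each library left out in turn, where fits between days assume a lone library to vary like the others and pairs within a day are values with no test, members called lower from Day 7 to Day 10 numbered 3 to 4, pairs enriched 8 to 10 at Day 2, 26 to 27 at Day 7 and 25 to 30 at Day 10, members called within a class between days 83 to 89 higher and 22 to 28 lower, and members whose change differed between the classes 7 to 8, and the other counts of members called were as reported. Thinning lowered all 60 shares of cells with a UMI. Depth limits the classes of few cells: immune-like cells numbered 28 and 43 at Day 7, and erythroid-like cells 14 and 10 at Day 2.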

Other observations

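At 2 times the resolution of clustering, a Day 2 cluster was named tenocyte-like, and the change from Day 2 to Day 10 could be compared between that class and chondrocyte-like cells (edgeR, interaction of class and day, adjusted over all genes tested). *Epyc* rose by 6.86 on the log2 scale in chondrocyte-like and by 3.05 in tenocyte-like cells, a difference of 3.81 (SE 0.687, adjusted p = 0.000306). *Prelp* rose by 3.13 and 2.21, and *Fmod* by 4.22 and 3.67, again more in chondrocyte-like cells. *Bgn*, with 2.92 and 4.28, *Lum*, with 2.27 and 3.15, and *Aspn*, with 2.14 and 2.58, rose more in tenocyte-like cells, by a difference of −1.36 (SE 0.0955) for *Bgn*. The difference did not pass the test for *Dcn* (0.26, SE 0.179), *Omd* (−0.54, SE 0.266), *Ogn* (−0.21, SE 0.101) and *Chad* (−0.52, SE 0.288). These values have no counterpart at the resolution used elsewhere, and the share of all genes called by this test is not given here.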
